A study of Mus musculus with 56 samples.

Results

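The comparison described here set cultured mouse cortical neurons given a short hairpin RNA (shRNA) against Top1 beside neurons given a control shRNA, which asks what lowering topoisomerase I by RNA interference does to transcript levels. It covers 6 of the 56 arrays of the series, 3 titled Top1 shRNA and 3 titled control shRNA, each numbered 1 to 3 and chosen by those titles. The description text of the shRNA arrays speaks of a topotecan dose response instead, so the groups rest on the titles and the treatment label. All came from C57BL6 embryos of embryonic days 13 to 15, and the neurons were kept for 7 days in vitro before treatment. Total RNA was hybridised to one gene array design, and the deposited value was 1 intensity per probe set. Further groups on the same design served for comparison: 3 arrays of Top2b shRNA, which share the 3 control shRNA arrays, and 6 arrays each of topotecan at 1 µM and its vehicle. The hairpin sequences, the vector, the target of the control hairpin and the time of exposure to the shRNA are not given in the sources used here. Drug times of 24 and 72 hours are recorded alike for every array, so which of them applies to the topotecan arrays is not settled here.

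Topoisomerase I, encoded by Top1, relaxes the supercoils that build up around a moving RNA polymerase by nicking and resealing 1 DNA strand. Topotecan traps the enzyme on DNA, and drugs of this class are known in neurons for lowering the transcripts of very long genes, many of them synaptic, and for unsilencing the paternal Ube3a allele. An shRNA is processed into a small RNA that directs the argonaute complex to a matching messenger RNA, which is a way to lower the enzyme without trapping it on DNA.

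Replicate 1 of each shRNA group lay at another intensity level than replicates 2 and 3. The mean deposited intensity was 177.582 to 180.28 on the arrays numbered 1 and 137.819 to 143.123 on those numbered 2 and 3, so the level was a term of the model and each difference was also taken within replicate number. Log2 intensities of the 13308 genes tested correlated between the Top1 and control arrays of the same number at 0.886, 0.851 and 0.870, between control arrays 2 and 3 at 0.992, and between Top1 arrays 2 and 3 at 0.960 (Pearson, across genes, which are not independent). The differences, Top1 shRNA minus control shRNA, correlated across genes at 0.824 between replicates 2 and 3, at 0.484 between 1 and 2 and at 0.511 between 1 and 3. A limma test of the effect in replicate 1 against that in replicates 2 and 3 passed for 1466 genes (11%), 926 higher in replicate 1 (6.96%) and 540 lower (4.06%). Neuronal transcripts were present in every culture, as read from the synaptic genes Snap25 and Syn1, chosen as a check of the label. Snap25 read 10.64 to 11.14 log2 intensity on the Top1 arrays and 11.51 to 11.89 on the control arrays. Syn1 read 9.07 to 9.53 on the Top1 arrays and 10.06 to 10.50 on the control arrays. These genes do not show what share of a culture was neuronal, and other neuronal markers, given below, read far lower on the Top1 arrays. The labels do not say whether replicates were separate cultures, so every p-value measures only the spread between these arrays.

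The targeted transcript itself did not pass the test over all 3 replicates. Top1 read 7.62, 8.39 and 8.29 log2 intensity in Top1 shRNA cultures 1 to 3, against 8.98, 8.46 and 8.55 in control shRNA cultures 1 to 3. All 3 Top1 shRNA arrays lay below all 3 control arrays, but only replicate 1 by a wide margin: the differences within replicate number were -1.36, -0.07 and -0.27. The estimate was -0.57 ± 0.24 (SE, n = 3 per group; limma, adjusted p = 0.106), and the effect in replicate 1 differed from that in replicates 2 and 3 by -1.19 (limma, adjusted p = 0.032). Top1 had 1 probe set with its symbol alone, and where the hairpin falls relative to it is not known here, so the directions below belong to the cultures labelled Top1 shRNA.

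**Figure D1:**
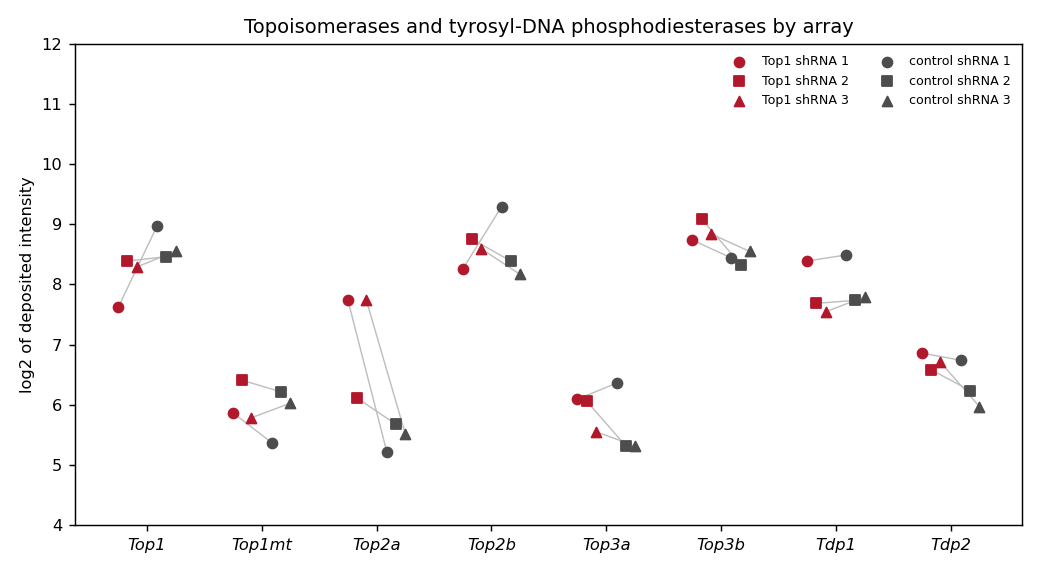
Log2 of deposited intensity (vertical axis) of topoisomerase and tyrosyl-DNA phosphodiesterase genes on each array, Top1 shRNA in red at left and control shRNA in grey at right of each gene, with symbols for the replicate number and a line joining arrays of the same number. Top1 is clearly lower in replicate 1 alone, at 7.62 against 8.98, and Top2a is higher on all 3 Top1 shRNA arrays.

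Among the other topoisomerases, Top3b, whose product also acts on RNA, rose slightly. It read 8.74, 9.09 and 8.84 in Top1 shRNA cultures and 8.44, 8.33 and 8.55 in control cultures, with no overlap, a difference of 0.45 ± 0.15 (SE, n = 3 per group; limma, adjusted p = 0.0499). Top2a, the type II enzyme of dividing cells, read 7.74, 6.11 and 7.75 in Top1 shRNA cultures, against 5.21, 5.67 and 5.52 in controls. Those groups did not overlap either, yet replicate 2 lay well under the other Top1 arrays and the difference of 1.73 ± 0.61 did not pass (adjusted p = 0.0617). Top2b, the type II enzyme of neurons, read 8.25, 8.76 and 8.60 in Top1 shRNA cultures and 9.30, 8.39 and 8.17 in controls: below the control in replicate 1 and above it in replicates 2 and 3 (estimate -0.08, adjusted p = 0.893). The mitochondrial enzyme Top1mt (0.15), Top3a (0.24) and the phosphodiesterases that remove trapped topoisomerases, Tdp1 (-0.13) and Tdp2 (0.40), did not pass, with adjusted p-values of 0.682, 0.413, 0.497 and 0.107 from the same limma model.

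Across the array the difference was broad. Of 13308 genes tested, 3800 passed the adjusted threshold of 0.05 (28.6%): 1844 rose (13.9%) and 1956 fell (14.7%), where rose and fell mean higher and lower in Top1 shRNA than in control shRNA cultures. The 3 within-replicate differences had the same sign for 7055 genes (53%), among them 3734 of the genes past the test (28.1% of those tested). With replicates 2 and 3 alone, 2710 genes rose (20.4%) and 3245 fell (24.4%). Leaving out Top1 shRNA replicate 3, control replicate 2 or control replicate 3 left 2396, 2096 or 1904 genes past the test, and without the term for intensity level 827 rose (6.21%) and 768 fell (5.77%). The median difference over all genes was -0.02 on the log2 scale.

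The 10 largest rises included genes of the extracellular matrix and the contractile apparatus beside transcription regulators and a growth factor. Ogn, the matrix proteoglycan osteoglycin, read 9.22, 10.68 and 9.84 in Top1 shRNA cultures, against 6.04, 7.46 and 7.49 in control cultures (2.92 ± 0.23, SE, n = 3 per group; limma, adjusted p = 0.000301). Cnn2, the actin-binding calponin 2, read 9.26, 10.14 and 9.60 with Top1 shRNA and 5.80, 7.39 and 7.11 with control shRNA (2.90 ± 0.23). Col8a1, a short-chain collagen, read 8.58, 8.81 and 9.12 with Top1 shRNA and 5.38, 6.38 and 6.29 with control shRNA (2.82 ± 0.18). In all 3 genes the lowest Top1 shRNA array was above the highest control array. Osr1, a transcription factor of mesoderm, rose by 2.68 ± 0.33, as did Myl9, the smooth muscle myosin light chain (2.68 ± 0.24), and Cnn1, calponin 1 (2.68 ± 0.20). The transcription cofactor Vgll3 (2.74 ± 0.19), Csf1, the growth factor of macrophages (2.68 ± 0.21), Lox, the enzyme that cross-links collagen (2.65 ± 0.26), and Anxa1, a phospholipid-binding annexin (2.63 ± 0.17), completed the 10 largest rises.

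Most of the genes that fell most are known from neurons. Slc17a7, the vesicular glutamate transporter of excitatory cortical neurons, read 6.97, 6.05 and 4.95 in Top1 shRNA cultures, against 8.26, 9.37 and 9.41 in control cultures (-3.03 ± 0.59, SE, n = 3 per group; limma, adjusted p = 0.00699). Sla, a Src-like adaptor, read 6.90, 5.08 and 6.07 with Top1 shRNA and 8.97, 9.03 and 9.14 with control shRNA (-3.03 ± 0.37). Cacna1g, a low-threshold calcium channel, read 6.00, 5.41 and 5.16 with Top1 shRNA and 9.02, 7.81 and 7.75 with control shRNA (-2.67 ± 0.22). No control array overlapped a Top1 shRNA array for these 3 genes. The potassium channel subunit Kcnv1 (-2.81 ± 0.45), the cadherin Cdh9 (-2.47 ± 0.32), the glutamate receptor Grm3 (-2.45 ± 0.30), the channel-interacting protein Kcnip4 (-2.43 ± 0.52), the calcium-binding protein Necab1 (-2.41 ± 0.38) and the kinase anchor Sphkap (-2.38 ± 0.53) followed. The microRNA gene Mir128-2 also stood in this group, and its mean in Top1 shRNA cultures lay under the filter limit, so no fold is given for it.

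**Figure D2:**
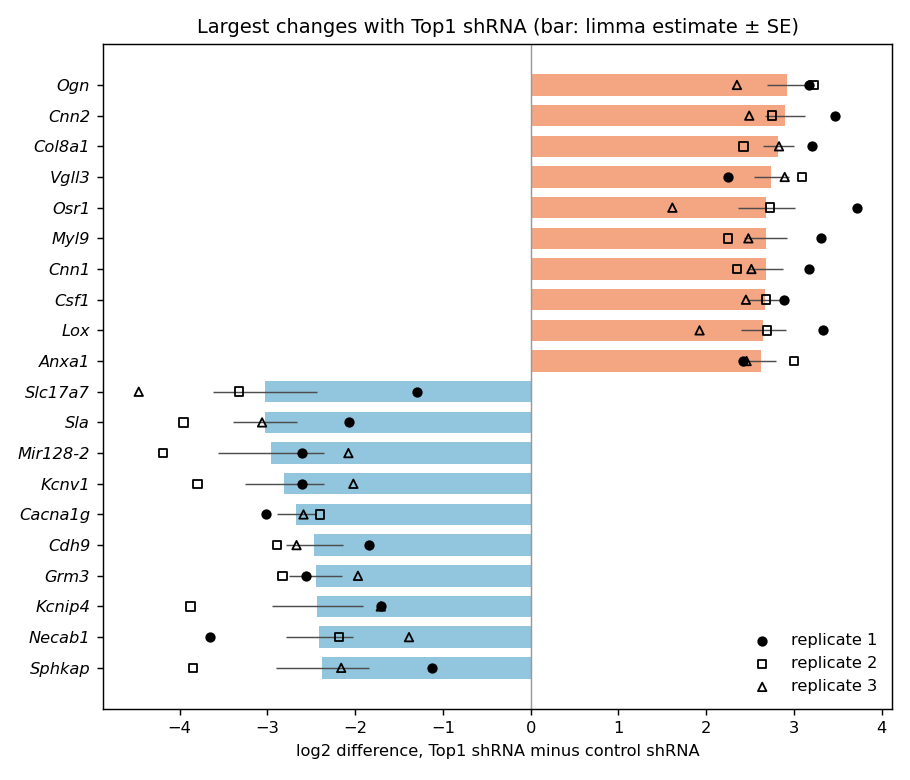
Log2 difference, Top1 shRNA minus control shRNA (horizontal axis), for the 10 genes with the largest rises and the 10 with the largest falls, with bars for the limma estimate, whiskers for its SE and a symbol for each replicate number. The genes were chosen among those with the same sign in every replicate, and the falls spread more between replicates than the rises do, as for Slc17a7 with an SE of 0.59.

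Markers of the cell types a cortical culture can hold moved in opposite directions. In bulk RNA, fewer cells of a type and less RNA per cell cannot be told apart. Of 16 measured excitatory neuron markers, 13 fell and 0 rose, with a median difference of -1.11 beside -0.02 over all genes. Besides Slc17a7, the transcription factor Neurod6 read 6.78, 5.66 and 7.21 in Top1 shRNA cultures, against 8.62, 8.70 and 8.64 in controls (-2.10 ± 0.42, limma, adjusted p = 0.00747, n = 3 per group). The postsynaptic protein Nrgn fell by 1.74 and the vesicle protein Sv2b by 1.70 on the log2 scale. Of 14 measured inhibitory interneuron markers, 6 fell and 1 rose (median -1.04). The peptide Sst (-1.47 ± 0.36), the GABA-synthesising enzyme Gad1 (-1.42 ± 0.42), the vesicular GABA transporter Slc32a1 (-1.33 ± 0.33) and the secreted protein Reln (-1.14 ± 0.16) led the falls.

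Markers of non-neuronal and dividing cells were higher. Of 19 measured fibroblast and meningeal markers, 15 rose and 0 fell (median 1.29), Pdgfrb, a growth factor receptor of mesenchymal cells, reading 8.31, 8.11 and 8.38 in Top1 shRNA cultures, against 5.96, 6.17 and 5.87 in controls (2.26 ± 0.19; limma, adjusted p = 0.000307, n = 3 per group). The matrix protein Fbln2 rose by 2.03 ± 0.18. Of 8 endothelial and mural markers 4 rose, the contractile genes Tagln (2.17 ± 0.23) and Acta2 (2.12 ± 0.36) and the receptors Kdr (1.44 ± 0.28) and Eng (1.37 ± 0.22). Of 24 proliferating cell markers 14 rose and 0 fell (median 1.29), with Cdk1, the mitotic kinase, at 8.22, 6.62 and 8.10 in Top1 shRNA cultures and 5.39, 6.27 and 5.82 in controls (1.82 ± 0.52). Replicate 2 showed the smallest gap there, and Bub1 (1.75 ± 0.44), Ccna2 (1.54 ± 0.41) and Mcm2 (1.49 ± 0.33) rose too.

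Astrocyte and progenitor markers rose in part. Of 19 astrocyte markers 7 rose and 1 fell (median 0.55), led by the matrix protein Tnc, at 10.77, 10.73 and 10.65 in Top1 shRNA cultures and 8.54, 8.34 and 8.34 in controls (2.31 ± 0.17; limma, adjusted p = 0.000301, n = 3 per group). The gap junction protein Gja1 (1.38 ± 0.37), the transcription factor Sox9 (1.37 ± 0.35) and Mlc1 (1.31 ± 0.31) were the next. Of 15 neural progenitor markers 6 rose and 1 fell (median 0.43). The receptor Notch1 (1.68 ± 0.23), the filament protein Nes (1.52 ± 0.16) and the transcription factors Sox2 (1.37 ± 0.30) and Pax6 (0.98 ± 0.26) were among those that rose, and 3 progenitor markers rose without Top1 shRNA replicate 2. Of 10 microglia markers Cd68 alone rose (1.52 ± 0.47), and of 9 oligodendrocyte lineage markers 0 passed.

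The summed intensity of every marker list showed the same split in each replicate. The 17 excitatory markers on the array summed to 3301, 2353 and 3030 in Top1 shRNA cultures 1 to 3, against 6162, 6954 and 7174 in controls, ratios of 0.536, 0.338 and 0.422. The 17 inhibitory markers gave ratios of 0.420, 0.509 and 0.596. The 20 fibroblast and meningeal markers summed to 21878, 21294 and 19644 with Top1 shRNA and 10959, 10780 and 10722 with control shRNA, ratios of 2.00, 1.98 and 1.83. Ratios for the endothelial and mural list were 4.65, 2.69 and 2.75, and for the proliferation list 2.31, 1.52 and 3.37. The endothelial and mural sum takes 17 genes, of which 8 were tested and 4 rose, and bright genes weigh most in it. The tested 8 had median log2 differences of 0.57, 1.33 and 1.08 in replicates 1, 2 and 3, so replicate 1 had the largest ratio and the smallest median. The 21 astrocyte markers gave 1.40, 1.19 and 1.46 and the 16 microglia markers 2.44, 2.09 and 1.22. The part of these markers in any gene group below was not tested.

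**Figure D3:**
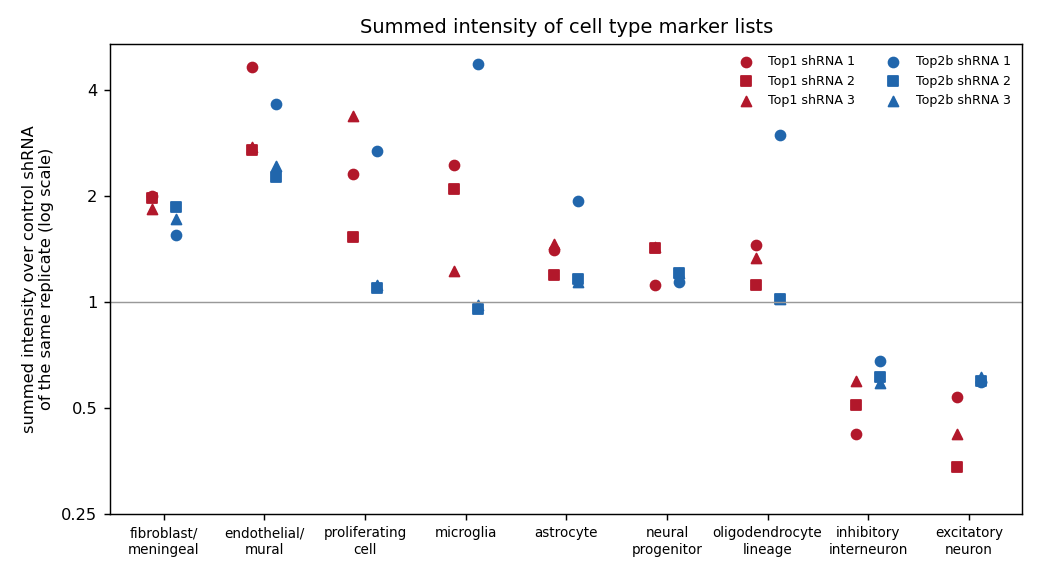
Summed intensity of each marker list divided by that of the control shRNA array of the same number (vertical axis, log scale), for Top1 shRNA in red and Top2b shRNA in blue, both over the same control arrays, with symbols for the replicate number. Both neuronal lists lie under 1 and the fibroblast list near 2, with Top1 ratios of 0.338 to 0.536 for excitatory markers and 1.83 to 2.00 for fibroblast markers.

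Long genes were lower in Top1 shRNA cultures, more so the longer their span, which is the distance from the first to the last base of the gene in RefSeq's GRCm38.p6 annotation. The 200 genes longer than 500 kb had a median difference of -0.92, and 119 of them fell while 18 rose. Without Top1 shRNA replicate 2 their median was -0.66, and 68 fell while 18 rose. The median was -0.28 for the 647 genes of 200 to 500 kb (210 fell, 87 rose), -0.09 for the 1149 of 100 to 200 kb (250 fell, 198 rose) and 0.02 for the 3514 under 10 kb (391 fell, 401 rose). Over 100 kb, 579 of 1996 genes fell (29.0%), against 12.2% of the 11242 shorter genes, and 357 fell without Top1 shRNA replicate 2. In the full comparison 303 genes over 100 kb rose (15.2%, against 13.7% of the shorter genes). Genes over 100 kb also read brighter in control cultures (median 7.68 against 6.98 log2 intensity), and the part of this in the counts was not tested. In genes over 500 kb the median was -0.53, -1.28 and -0.72 in replicates 1, 2 and 3, so each replicate showed the gradient and replicate 2 the steepest.

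**Figure D4:**
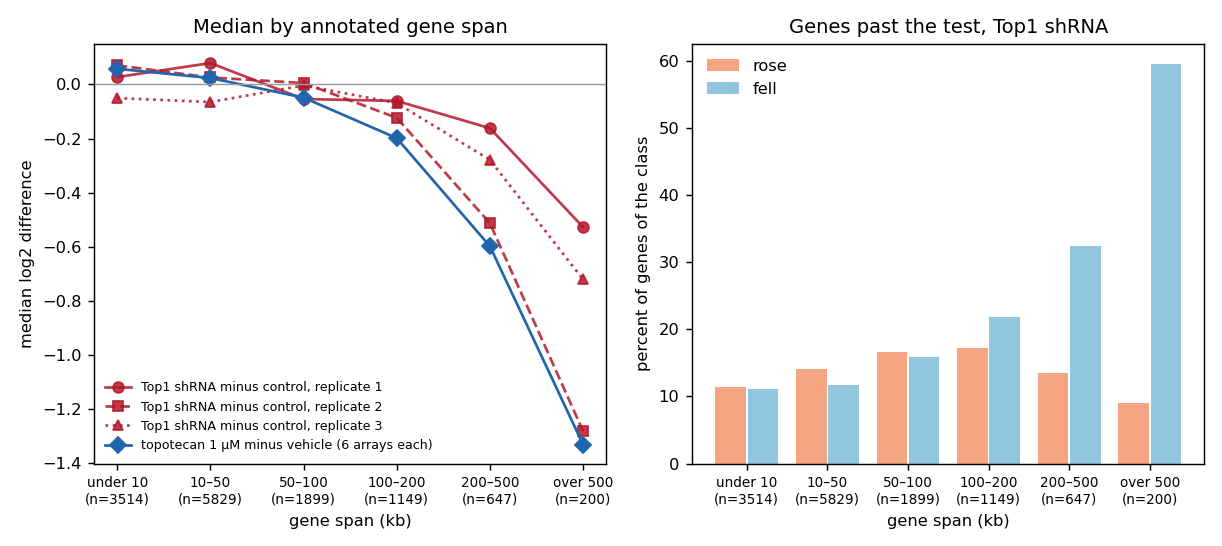
At left, the median log2 difference (vertical axis) by class of gene span in kb (horizontal axis), for each Top1 shRNA replicate over its control in red and for topotecan over vehicle in blue; at right, the percent of each class that rose or fell with Top1 shRNA. Medians lie near 0 up to 100 kb and reach -0.53 to -1.28 over 500 kb with Top1 shRNA and -1.33 with topotecan.

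A score for each array, the mean log2 intensity of genes over 100 kb minus that of shorter genes, gave 1 value per culture. It was 0.444, 0.176 and 0.423 in Top1 shRNA cultures, against 0.598, 0.560 and 0.546 in controls. The groups did not overlap, and the means were 0.348 ± 0.149 and 0.568 ± 0.0268 (SD, n = 3 each). The difference of -0.221 gave p = 0.1 in a two-sided exact permutation test, the smallest value that 3 against 3 arrays allow. Without Top1 shRNA replicate 2 the difference was -0.135.

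Of the 10 longest genes measured, 5 fell. Nrxn3, a presynaptic adhesion molecule, read 8.89, 7.72 and 8.39 in Top1 shRNA cultures and 10.52, 9.96 and 10.02 in control cultures (-1.83 ± 0.22, SE, n = 3 per group; limma, adjusted p = 0.000904). Cntnap2, which clusters potassium channels on axons, read 9.04, 6.77 and 7.70 with Top1 shRNA and 8.95, 9.15 and 9.07 with control shRNA. Its fall of -1.22 ± 0.39 (adjusted p = 0.0441) came from replicates 2 and 3, since replicate 1 differed by 0.09. Ptprd, a receptor phosphatase (-1.29 ± 0.35), Lsamp, a limbic adhesion protein (-1.44 ± 0.19), and Macrod2 (-1.32 ± 0.25) fell. Dmd (-0.31), Lrp1b (-0.82), Dlg2 (-0.95), Csmd1 (-1.08) and Fhit (0.10) did not pass, with adjusted p-values of 0.285, 0.0811, 0.106, 0.0678 and 0.737 from limma.

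Many synaptic genes fell, with counts that rested in part on Top1 shRNA replicate 2. Of 74 measured synaptic and axonal adhesion genes, 52 fell and 1 rose (median -1.21), and 29 fell without that array (median -0.88). Tenm1, a teneurin, read 8.20, 6.10 and 7.82 in Top1 shRNA cultures, against 10.06, 9.39 and 9.38 in controls (-2.24 ± 0.44; limma, adjusted p = 0.00713, n = 3 per group). Cdh9 (-2.47), Cntnap5b (-2.27) and the short gene Slitrk3 (-2.03) were the other leading falls. Of 20 glutamate receptor genes 15 fell and 0 rose (median -1.12), and 9 fell without it: Grin2b, an NMDA receptor subunit, read 9.80, 7.65 and 8.81 with Top1 shRNA and 10.71, 9.99 and 10.12 with control shRNA (-1.52 ± 0.34), beside the metabotropic receptors Grm3, Grm2 (-2.15 ± 0.24) and Grm7 (-1.78 ± 0.51). Of 11 GABA receptor genes 9 fell and 0 rose (median -1.27), Gabrb2 by -2.01 ± 0.28, Gabrg1 by -1.60 ± 0.14, Gabrg3 by -1.42 ± 0.45 and Gabbr2 by -1.37 ± 0.41.

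Ion channels and the release machinery moved the same way. Of 40 voltage-gated channel genes 31 fell and 1 rose (median -1.29), and those up to 100 kb had a median of -1.12. Kcnq3, a subunit of the M-type potassium channel, read 7.70, 6.24 and 8.09 in Top1 shRNA cultures and 8.52, 9.93 and 9.91 in controls (-2.11 ± 0.53; limma, adjusted p = 0.0187, n = 3 per group), and the calcium channel Cacna1i fell by -1.88 ± 0.41. Of 43 synaptic vesicle release genes 31 fell and 1 rose (median -1.05), and 16 fell without Top1 shRNA replicate 2. These were led by Stxbp5l (-1.91 ± 0.28), Rph3a (-1.79 ± 0.31), Sv2b (-1.70 ± 0.44) and the calcium sensor Doc2b (-1.62 ± 0.29). The excitatory marker sums given above were 0.338 to 0.536 of control in the same cultures.

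The autism candidate list held 102 measured genes of 115 listed, of which 52 fell and 4 rose (median -0.76), and 29 fell and 4 rose without Top1 shRNA replicate 2 (median -0.56). The median was -1.06 for its 76 genes over 100 kb and -0.28 for its 26 shorter genes. Cntn5, a contactin, read 8.91, 6.08 and 6.93 in Top1 shRNA cultures, against 9.68, 9.03 and 8.95 in controls (-1.91 ± 0.48; limma, adjusted p = 0.0187, n = 3 per group). Lrp2, an endocytic receptor, was the largest rise of the list, at 8.91, 9.62 and 9.12 with Top1 shRNA and 7.18, 6.44 and 6.56 with control shRNA (2.49 ± 0.28). Nlgn1, a postsynaptic adhesion molecule, read 8.78, 7.40 and 8.47 with Top1 shRNA and 9.01, 9.05 and 9.25 with control shRNA, all 3 lower but not past the test (-0.88 ± 0.34, adjusted p = 0.0808).

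At the Ube3a locus the probe sets disagreed. Ube3a encodes the ubiquitin ligase lost in Angelman syndrome, and in neurons its paternal copy is silenced by the long antisense transcript of the Snhg14 gene. Snhg14 read 9.58, 9.03 and 9.79 in Top1 shRNA cultures, against 11.11, 10.35 and 10.32 in controls, a fall of -1.12 ± 0.36 (limma, adjusted p = 0.0463, n = 3 per group). The brighter Ube3a probe set read 9.27, 6.00 and 9.01 with Top1 shRNA and 10.12, 9.80 and 9.78 with control shRNA, so that replicate 2 set most of its difference of -1.80 ± 0.72 (adjusted p = 0.0906). The other Ube3a probe set read 9.11, 9.10 and 8.96 with Top1 shRNA and 9.56, 8.97 and 9.05 with control shRNA (-0.14 ± 0.16). Which strand each probe set reads was not checked. In a fit over all 23521 probe sets with 1 symbol, which gave the value of the second Ube3a probe set, Snhg14, Top3b and Cntnap2 did not pass (adjusted p = 0.0590, 0.0809 and 0.0556).

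Targets of p53, the transcription factor of the DNA damage response, rose in number. Of 34 p53 target genes 16 rose and 1 fell (median 0.90), and the list's median was 0.03, 1.46 and 1.10 in replicates 1, 2 and 3. With replicates 2 and 3 only, 26 rose and 1 fell, and without Top1 shRNA replicate 2, 10 rose and 1 fell. Fas, a death receptor, read 7.82, 9.29 and 8.45 in Top1 shRNA cultures and 6.59, 6.67 and 6.37 in controls (1.97 ± 0.28; limma, adjusted p = 0.00181, n = 3 per group). The epoxide hydrolase Ephx1 (1.95 ± 0.21), the spindle protein Ckap2 (1.87 ± 0.21) and the antiproliferative gene Btg2 (1.77 ± 0.30) rose. Cdkn1a, the p53-driven inhibitor of cyclin-dependent kinases, read 11.13, 12.19 and 11.71 with Top1 shRNA and 11.03, 11.00 and 10.94 with control shRNA: higher on every Top1 array, and just short of the threshold (0.69 ± 0.23, adjusted p = 0.0525). Of 32 genes of DNA strand break and topoisomerase repair 3 rose (9.38%, under the 13.9% of all genes) and 0 fell. These were Chek2 (1.36 ± 0.21), Xrcc5 (0.83 ± 0.21) and Top3b, and 1 remained past the test without Top1 shRNA replicate 2.

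Interferon-stimulated genes carry out the antiviral response of cells. Of 28 measured, 15 rose and 0 fell (median 1.24; 0.46, 1.43 and 1.97 in replicates 1, 2 and 3). Ddx58, the cytosolic RNA sensor, read 7.51, 8.81 and 9.19 in Top1 shRNA cultures and 6.49, 6.18 and 6.35 in controls (2.16 ± 0.33; limma, adjusted p = 0.00239, n = 3 per group). Ifit1 (2.09 ± 0.52), the RNA sensor Ifih1 (1.95 ± 0.44) and the RNA-dependent kinase Eif2ak2 (1.78 ± 0.26) rose as well. The rise of this list was not particular to Top1 shRNA: its sums with Top2b shRNA, beside those of p53 targets and antioxidant genes, are given below. Of 11 genes of the RNA interference machinery 3 fell (27.3%, beside 14.7% of all genes) and 1 rose (9.09%, beside 13.9%). Those that fell were the argonautes Ago1 (-0.83 ± 0.17) and Ago2 (-0.54 ± 0.17) and Tnrc6c (-0.86 ± 0.24), and the export factor Xpo5 rose by 0.50 ± 0.15. Without Top1 shRNA replicate 2, 2 of the list fell and 0 rose, and without the term for intensity level 0 passed. So small a list allows no statement about the pathway.

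Antioxidant and chaperone genes rose in part. Of 25 NRF2 and antioxidant genes 13 rose and 0 fell (median 0.58), with Hmox1, heme oxygenase, at 9.55, 9.33 and 9.85 in Top1 shRNA cultures and 7.65, 6.92 and 7.05 in controls (2.37 ± 0.21; limma, adjusted p = 0.000314, n = 3 per group). Gstm1 (1.47 ± 0.20), Nqo1 (1.45 ± 0.44) and Gsta4 (1.40 ± 0.18) followed. Of 27 heat shock and ER chaperone genes 6 rose (22.2%, beside 13.9% of all genes) and 0 fell, and 12 rose with replicates 2 and 3 only. Among the 6 were the small heat shock proteins Cryab (1.74 ± 0.20), Hspb1 (1.38 ± 0.40) and Hspb8 (1.30 ± 0.37) and the co-chaperone Bag3 (1.53 ± 0.21). Of 30 integrated stress response genes 3 rose (10%) and 5 fell (16.7%), shares near the 13.9% and 14.7% of all genes. Atf3 rose by 1.18 ± 0.33, and Aldh1l2 (-1.95 ± 0.35), the receptor Vldlr (-1.40 ± 0.24) and the transporter Slc7a3 (-1.19 ± 0.33) fell. Of 26 apoptosis genes 6 rose (23.1%, beside 13.9% of all genes) and 2 fell (7.69%, beside 14.7%), with a list median of 0.12. Those that rose included Pmaip1 (1.52 ± 0.31), Casp8 (1.42 ± 0.23) and the survival gene Bcl2 (1.38 ± 0.21), and Hrk fell by -1.70 ± 0.28.

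Sterol and fatty acid synthesis genes fell: 15 of 25 fell and 1 rose (median -0.86). Stard4, a cholesterol carrier, read 6.04, 5.16 and 5.47 in Top1 shRNA cultures, against 6.57, 7.68 and 7.67 in controls (-1.75 ± 0.33; limma, adjusted p = 0.00597, n = 3 per group). Mvd (-1.64 ± 0.35), Lss (-1.46 ± 0.24) and Elovl6 (-1.37 ± 0.23) fell with it, and the list's median was -0.30 in replicate 1, -1.35 in replicate 2 and -1.05 in replicate 3. Of 37 activity-regulated genes 8 rose (21.6%, beside 13.9% of all genes) and 1 fell (2.70%, beside 14.7%). Replicate 1 went the other way: the list's median was -0.28, 0.93 and 0.51 in replicates 1, 2 and 3. It was 0.07 without Top1 shRNA replicate 2 (6 rose, 2 fell). Ptgs2 rose by 1.42 ± 0.36, Egr3 fell by 1.38 on the log2 scale, and Klf4 rose over a control mean under the filter limit, so no fold is given for it. With replicates 2 and 3 only, 18 activity-regulated genes rose. Fos read 7.53, 8.51 and 6.43 with Top1 shRNA and 7.73, 5.19 and 5.00 with control shRNA, high in both cultures of replicate 1 and not past the test (1.51 ± 0.58, adjusted p = 0.0827).

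Housekeeping genes passed rarely. Of 51 cytosolic ribosomal protein genes 0 passed (median 0.11), although 13 rose and 1 fell with replicates 2 and 3 only. Their median was -0.28, 0.40 and 0.19 in replicates 1, 2 and 3, and the ratio of summed intensities to control was 0.884, 1.32 and 1.21. Of 67 respiratory chain genes 4 rose and 0 fell, among them Ndufa13 (0.67 ± 0.13), Atp5l (0.56 ± 0.18), Ndufb7 (0.50 ± 0.13) and Ndufa2 (0.50 ± 0.14). Of 33 transcription elongation genes Aff1 (1.21 ± 0.22) and Larp7 (0.96 ± 0.16) rose and Aff3 (-0.77 ± 0.22) fell.

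**Figure D5:**
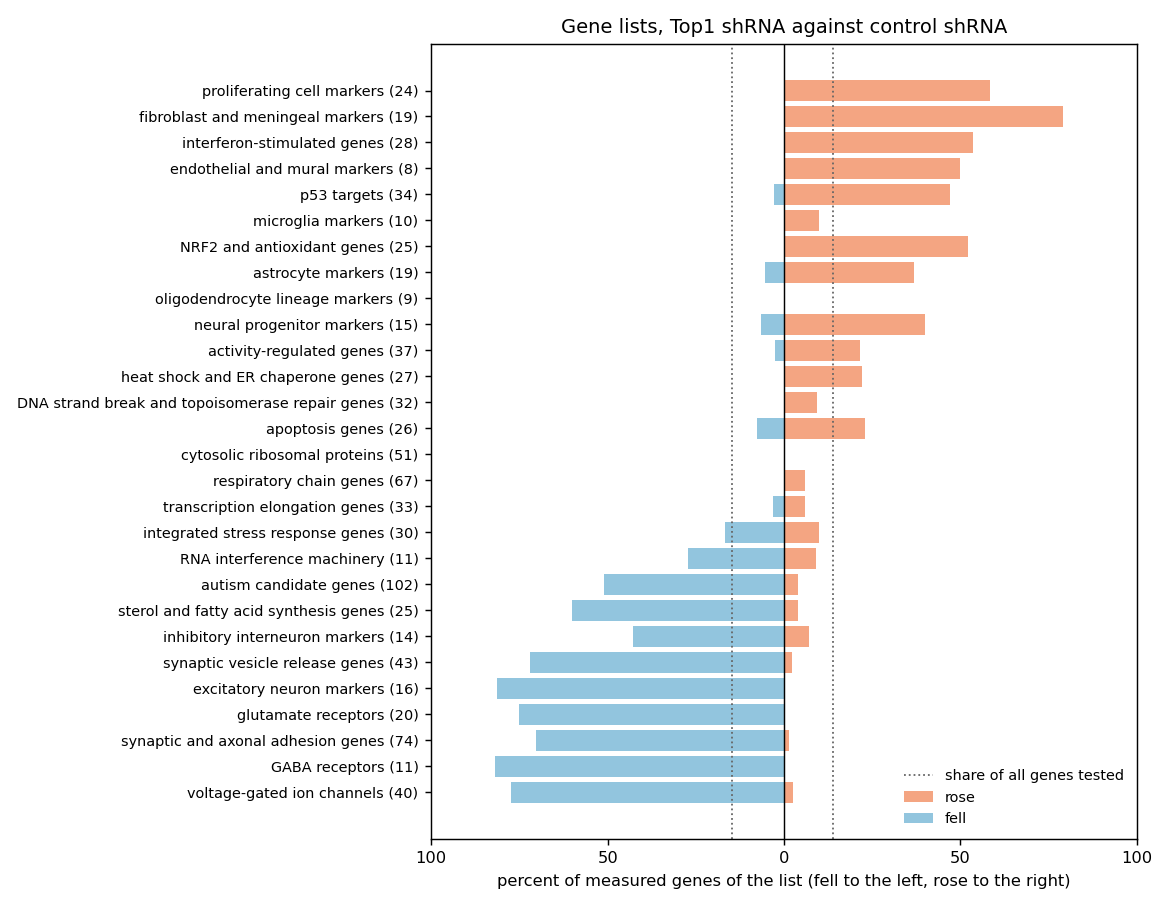
Percent of the measured genes of each list (number in parentheses) that fell, to the left, or rose, to the right, in Top1 shRNA against control shRNA cultures, sorted by the list's median difference, with dotted lines at the share of all genes tested (13.9% rose, 14.7% fell). Neuronal, synaptic and sterol lists lie to the left, and proliferation, fibroblast and interferon lists to the right.

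Topotecan gave a partly shared picture in cultures that share no array with the shRNA groups. With topotecan at 1 µM 5190 genes passed against vehicle (39%), by limma at the same threshold: 2409 higher (18.1%) and 2781 lower (20.9%). Of the genes that fell with Top1 shRNA 912 were also lower with topotecan, 46.6% of the shRNA list and 32.8% of the topotecan list. Of those that rose, 654 were also higher with topotecan, 35.5% and 27.1% of the lists. Opposite calls were given to 240 genes higher with Top1 shRNA and lower with topotecan, and to 87 genes the other way round.

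The long genes that fell were largely those lower with topotecan. Among the 1285 that spanned over 100 kb and were lower with the drug, Top1 shRNA cultures had 492 falls and 115 rises (median -0.44). Of the other 711 genes over 100 kb, 87 fell and 188 rose (median 0.15). Among 2298 genes up to 100 kb that were higher with topotecan, 611 rose and 83 fell (median 0.29). Splitting long genes by their topotecan response was chosen after the values had been seen.

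The sizes of the responses differed for many genes: 4554 of 13308 (34.2%) passed a test of the Top1 shRNA effect minus the topotecan effect, 2539 higher (19.1%) and 2015 lower (15.1%). All topotecan and vehicle arrays lay at the higher intensity level (means of 177.512 to 183.323), which only replicate 1 of the shRNA groups shared. Intensity level and kind of treatment are therefore in part mixed in this test. Csmd1 differed from its control by -1.08 with Top1 shRNA and -3.16 with topotecan, and the brighter Ube3a probe set by -1.80 with Top1 shRNA and -4.73 with topotecan. The strand that this Ube3a probe set reads was not checked, and replicate 2 set most of its Top1 shRNA difference. Cacna1g differed by -2.67 with Top1 shRNA and -0.32 with topotecan (limma, adjusted p = 0.11 for topotecan), and Slc17a7 by -3.03 with Top1 shRNA and -0.51 with topotecan (adjusted p = 0.21 for topotecan). Within replicates 1, 2 and 3 Slc17a7 differed by -1.30, -3.32 and -4.47 with Top1 shRNA, least in replicate 1. The fibroblast markers Ogn and Pdgfrb, at 2.92 and 2.26 with Top1 shRNA, had topotecan differences of 0.12 and 0.18 (adjusted p = 0.55 and 0.29), and Acta2 was lower with topotecan (-0.63). The difference between the effects passed its test for each of these 7 genes, at 2.08 for Csmd1, 2.93 for the brighter Ube3a probe set, -2.35 for Cacna1g, -2.52 for Slc17a7, 2.80 for Ogn, 2.08 for Pdgfrb and 2.75 for Acta2. Top1 itself was higher with topotecan by 0.22 (adjusted p = 0.0042).

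Set directly against Top2b shRNA, 0 genes passed the limma test in Top1 shRNA cultures, while 1913 (14.4%) had an unadjusted p under 0.05. Array 1 of either group decided this count: it was 704 without Top1 shRNA replicate 1, 69 without Top2b shRNA replicate 1, and 1870 with replicates 2 and 3 only (847 higher, 1023 lower). In that last comparison Top2b was higher in Top1 shRNA than in Top2b shRNA cultures by 1.84 (adjusted p = 0.00679), and Top1 differed by -0.38 (adjusted p = 0.117). Both effects are taken over the same control arrays, so their values are given side by side without an overlap. Nrxn3 differed from control by -1.83 with Top1 shRNA and -0.54 with Top2b shRNA, Slc17a7 by -3.03 and -0.97, Ogn by 2.92 and 3.19, and Stard4 by -1.75 and -1.53. Summed interferon-stimulated genes were 1.58, 2.02 and 2.41 of control in Top1 shRNA replicates 1 to 3, and 1.90, 1.55 and 1.33 with Top2b shRNA. For p53 targets the ratios were 1.02, 2.19 and 2.12 with Top1 shRNA, and 0.858, 1.62 and 1.69 with Top2b shRNA. For antioxidant genes they were 1.41, 1.42 and 1.56, and 1.55, 1.27 and 1.27. These lists were thus also higher with Top2b shRNA, except p53 targets in replicate 1. The median difference of Top1 from Top2b shRNA was -0.40 in genes over 500 kb and 0.02 over all genes.

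MicroRNA genes, looked at after the values had been seen, fell more often than they rose: of 165 tested, 37 fell (22.4%) and 2 rose, beside 14.7% and 13.9% of all genes. The count was 55 lower and 15 higher with replicates 2 and 3 only, 22 lower without Top1 shRNA replicate 2 and 18 lower without the term for intensity level. Several that fell, Mir128-2 and Mir379 among them, had Top1 shRNA means under the filter limit. They passed the filter only through the arrays where they read higher, so the count of falls rests on them in part. A microRNA pairs with its targets mainly through the seed, bases 2 to 8 of the mature strand, printed here in capitals. Shown are miR-9 and miR-128, whose measured genes fell together, and miR-218, whose gene Mir218-1 rose. With them stand miR-379 and miR-1193, whose genes fell and which share a seed. Sequences and positions are from RefSeq's GRCm38.p6, all on the + strand except Mir128-2 and each 1 copy of those that arise from several genes.
miR-9-5p (Mir9-1, chr3:88215613-88215635): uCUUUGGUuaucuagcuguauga
miR-128-3p (Mir128-2, chr9:112118644-112118664): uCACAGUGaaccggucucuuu
miR-218-5p (Mir218-1, chr5:48223966-48223986): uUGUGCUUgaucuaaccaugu
miR-379-5p (Mir379, chr12:109709065-109709085): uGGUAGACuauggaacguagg
miR-1193-5p (Mir1193, chr12:109715716-109715735): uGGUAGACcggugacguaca

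The probe sets read the hairpin gene, so the arms and the mature microRNA cannot be told apart from the precursor. All 3 genes of miR-9, a microRNA of neural progenitors and neurons, fell: Mir9-1 by -1.03 ± 0.21, Mir9-2 by -1.41 ± 0.36 and Mir9-3 by -0.67 ± 0.20 (limma, adjusted p = 0.0084, 0.0185 and 0.0368, n = 3 per group). Mir128-1 read 6.33, 6.03 and 6.58 in Top1 shRNA cultures, against 8.18, 7.34 and 7.52 in controls, with no overlap (-1.37 ± 0.34). Of the host genes looked at, Arpp21, which holds Mir128-2, fell by 1.56 on the log2 scale, while R3hdm1, which holds Mir128-1, differed by -0.56 and did not pass (adjusted p = 0.0776). Mir218-1 rose by 1.01 ± 0.26, and its host Slit2, an axon guidance ligand, rose by 1.25 ± 0.33, whereas both were lower with topotecan, by -0.85 and -0.95. On chromosome 12, 16 of 38 microRNA genes fell, against 21 of 127 on other chromosomes. No range is given, since several of their Top1 shRNA means, that of Mir379 included, lay under the filter limit. The noncoding genes Rian (-0.59, adjusted p = 0.0569) and Meg3 (-0.11) of the same chromosome did not pass. Mir379 and Mir1193 of that group carry the same seed letters, as the lines above show.

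Among the contractile genes that rose, Cnn2 and Myl9 have a CArG box, the motif known to bind serum response factor, in the promoter window of 250 bases before to 50 after the RefSeq start. It is printed in capitals within the whole windows (GRCm38.p6, + strand), because these genes rose together.
Cnn2 (chr10:79988350-79988649): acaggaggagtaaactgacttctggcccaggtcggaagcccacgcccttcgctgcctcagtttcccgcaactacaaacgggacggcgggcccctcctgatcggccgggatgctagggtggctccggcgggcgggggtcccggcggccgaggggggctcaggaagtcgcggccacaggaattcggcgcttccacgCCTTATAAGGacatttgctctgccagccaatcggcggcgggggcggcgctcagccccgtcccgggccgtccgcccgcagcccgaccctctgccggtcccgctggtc
Myl9 (chr2:156775214-156775513): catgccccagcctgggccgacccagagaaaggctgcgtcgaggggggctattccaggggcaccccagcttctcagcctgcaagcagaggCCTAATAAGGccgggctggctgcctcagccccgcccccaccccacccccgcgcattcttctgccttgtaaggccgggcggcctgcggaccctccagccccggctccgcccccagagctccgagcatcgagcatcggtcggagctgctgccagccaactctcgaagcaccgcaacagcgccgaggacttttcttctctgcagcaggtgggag
The motif is its own reverse complement in form, so 1 search covered both strands. It was found in 1.63% of all 32851 promoter windows. The other shares are by gene, where a gene counts if any of its windows holds the motif. They were 2.19% of 1458 genes that rose, 1.58% of 1455 that fell and 1.56% of 10418 tested, so the share among rising genes was near that of genes tested. The search took only the exact form, with nothing but A or T between CC and GG at the length printed above. The windows of Acta2, Cnn1, Ogn, Col8a1 and Anxa1 held no exact match. The Acta2 window does hold ccctatatgg and ccttgtttgg, which come close to that form and were not counted. No window was available for Tagln or Lox.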

How the data were processed

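Per the labels' protocols, total RNA of cultured cortical neurons was labelled with biotin and hybridised to Affymetrix gene arrays. The deposited table holds 1 linear intensity per probe set and array, made by the authors with Affymetrix Expression Console and RMA, per the submitters' processing notes; versions and genome build are not given in the sources used here. Of 41345 probe sets, 23521 had 1 gene symbol in the platform annotation, 1814 several and 16010 none. Intensities from the deposited table were put on a log2 scale. Each of 22180 genes took its brightest probe set over the 9 shRNA arrays, and the 13308 genes above the 40th percentile of mean log2 intensity (4.88) were tested.

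R 4.3.3 with limma 3.58.1 fitted the 9 shRNA arrays (3 Top1, 3 Top2b and 3 control) with a term for intensity level, replicate 1 against 2 and 3, and adjusted p-values over all genes by Benjamini-Hochberg (0.05). Topotecan and vehicle (6 arrays each) had a fit of their own, and 18 arrays entered the test of the difference between effects. The limma step was tested on simulated data with planted log2 changes of 0.5, 1 and 2. It recovered 30%, 74.6% and 98.7% of them, with 11 false calls. The simulated spread came from replicates 2 and 3 alone and each planted change was equal in all replicates. The data differ from that, so these shares need not hold for them. The precision is limited by 3 arrays per group. No column of the table is of another series. Gene spans came from RefSeq GRCm38.p6 and were found for 99.5% of genes tested.

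Genes were named by rule: a fixed set of topoisomerase and locus genes (a member is not reported here), the 10 largest rises and falls with 1 sign in all replicates (predicted genes left out, of which 62 rose and 103 fell), up to 4 genes past the test per list, and the 10 longest genes. The groups compared, the 28 gene lists and the rules were chosen with earlier results of these data known. Alternatives were other normalizations, filters, probe set rules, models and subsets of arrays.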

Additional observations from a re-analysis of the deposited data

Results flagged for a closer look

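The Top1 shRNA effect and the topotecan effect differed for 4554 genes by limma's test of the difference. Among genes named throughout, the shRNA effect minus the topotecan effect was -0.79 for Top1, 2.39 for Top2a, 0.43 for Top3b, 2.93 for the brighter Ube3a probe set, 1.18 for Nlgn1 and 1.78 for Fos on the log2 scale. These compare effects from separate experiments whose exposure differed in kind, and the times of both are not settled here. All topotecan and vehicle arrays lay at the intensity level of shRNA replicate 1, so level and kind of treatment are in part mixed.

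The effect in replicate 1 differed from that in replicates 2 and 3 for 1466 genes (11%), 926 higher (6.96%) and 540 lower (4.06%), by a limma test of that difference. For Top1 the difference was -1.19 and for Top2b -1.44. Replicate number and intensity level cannot be told apart, since each level holds its own replicate numbers.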

How the results depend on the processing

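Without the term for intensity level, 1595 genes passed (827 higher, 768 lower), 250 of the lower ones over 100 kb, all 1595 among the genes called with it, and the test against topotecan gave 2873. With replicates 2 and 3 only, 5955 passed, 3245 of them lower, and 3611 were shared with the full comparison in the same direction. Leaving out 1 array in turn gave 1904 to 4673 genes past the test, 1053 to 2115 higher, 851 to 2558 lower, 267 to 695 lower over 100 kb, 0 to 704 between Top1 and Top2b shRNA and 3696 to 5747 against topotecan. Between Top1 and Top2b shRNA, 1870 passed with replicates 2 and 3 only, an alternative chosen after seeing the data. The long-gene score differed by -0.41 with genes over 200 kb and by -0.27 to -0.13 leaving out 1 array. Each shRNA group holds the intensity levels in the same proportion, so leaving out the intensity term cannot change a difference or a list's median. Fewer members passed without it: 28 adhesion, 6 glutamate receptor, 15 vesicle release, 23 autism candidate and 7 excitatory marker genes fell, and 7 p53 target and 3 proliferation marker genes rose. Directions reversed for 3 named genes, none past the test, with replicates 2 and 3 only and when 1 array was left out: Top1mt (-0.026, and -0.10 to 0.32 leaving out 1 array), Top2b (0.40, and -0.35 to 0.53) and Fhit (-0.098, and -0.064 to 0.28). The cause was not tested. Over 130 named genes and their settings, 1953 of 2190 values kept direction and side of the threshold, 209 kept direction only, 19 newly passed and 9 reversed. Settings that changed only the terms of the model could not change a direction, so the directions kept there are no check. Deviations of same-numbered Top1 and control arrays from their group means correlated at 0.312, 0.0592 and 0.288, so the numbers were not taken to pair the cultures; with the replicate block 3138 genes passed (1569 higher, 1569 lower, 486 of the lower over 100 kb), 3130 of them shared, 8 named genes no longer passed, and the long-gene score gave an exact paired p of 0.25.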
